A study of Mus with 3 samples.

Results

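Myelin and mature oligodendrocyte genes were followed over 3 one-colour Agilent arrays of mouse hippocampal RNA. The group held 9 genes, Mbp, Mog, Mag, Cnp, Mobp, Aspa, Cldn11, Ermn and Ugt8a, and its probes were those that carry 1 of these names in the array files. This gave 14 of 39429 gene probes, for 9 of 23695 named genes. The mice were males of the outbred Slc:ddY stock and aged 6 weeks, with 10 mice in each group and no genetic change named in the labels. ASO mice were given shochu oil, an oily fraction of the spirit shochu, by mouth at 2000 mg/kg/day for 15 days and received 10 nmol of the amyloid fragment Aβ25-35 in 5 µL into the cerebral ventricles on day 8. ACO mice received the same peptide injection and distilled water by mouth. The labels name an injected group SCO, a code that no sample carries, and it was read as ASO. NCO mice received distilled water by mouth and 5 µL of distilled water in place of the peptide, by a route that the labels do not state. Hippocampi were taken after a Y-maze test on day 16, RNA of 2 mice made 1 set, and equal amounts of a group's 5 sets went onto 1 array. Pooling left no spread between samples of a group, so differences are described without a test.

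Oligodendrocytes wrap axons of the central nervous system in myelin, a stack of membranes rich in cholesterol and galactolipids. Mature cells make the structural proteins of the compact membrane, the glycoproteins of its inner and outer faces and the enzymes that build its lipids. In the hippocampus the myelinated fibres include those of the alveus and the fimbria. In whole tissue, fewer oligodendrocytes and less of an RNA per oligodendrocyte cannot be told apart.

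The files give an intensity for each spot on each array, which was corrected for background and scaled so that the arrays share their 75th percentile. Differences below are log2 values of the scaled signal plus 50, the first array named minus the second, and percentages of 1 array's level on another are also of the signal plus 50. Between 50.9% and 53.7% of gene probes exceeded the signal to noise limit of 2.6 that stands here for a spot well above background. All 14 myelin probes passed it on all 3 arrays, with ratios from 6.4 to 544, and none had a saturated pixel. Each was printed at 1 spot. As a measure of spot error, the 208 probes that were printed at 10 spots with a signal in the range of the myelin probes had a median SD of the difference between spots of 0.091 for ASO minus ACO, 0.083 for ACO minus NCO and 0.095 for ASO minus NCO. The highest SD among these probes was 0.54, 0.29 and 0.55 in the same order. This SD holds error on the array and leaves out the mice, the pooling and the labelling. All 6 genes that mark dentate or pyramidal fields (Prox1, C1ql2, Dsp, Wfs1, Fibcd1 and Grik4) were above background on every array.

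The myelin genes were lower on the ACO array than on the NCO array as a group, and mixed on ASO against ACO. Against NCO, all 9 genes were lower on ACO, by -0.027 to -0.31, with a median of -0.13, and 13 of 14 probes were lower. Against ACO, 5 genes were higher and 4 lower on ASO, and Mag stood apart at 0.46. Against NCO, 7 of the 9 genes were lower on ASO, with a median of -0.16, while Mag and Mobp were higher.

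**Figure D1:**
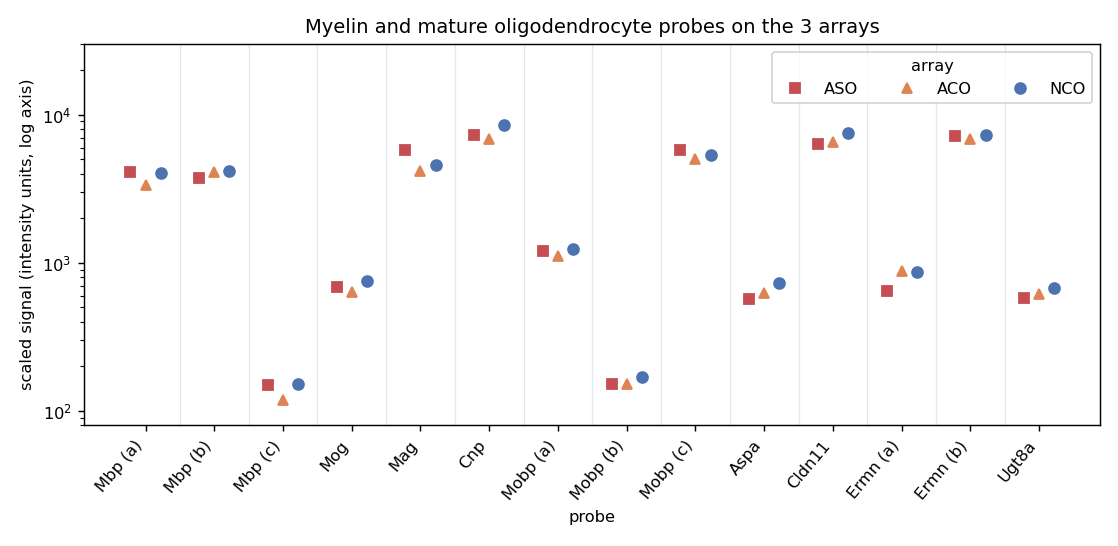
Scaled signal (log axis) of the 14 probes of the 9 genes on the ASO (squares), ACO (triangles) and NCO (circles) arrays, 1 pool of 10 mice each; letters tell probes of 1 gene apart. The NCO point lies above the ACO point for every probe but 1, the dim Ermn probe (a), where ACO had 880 and NCO 866; levels of different probes are not comparable.

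Among the proteins of the compact membrane, Mbp encodes myelin basic protein, which holds the cytoplasmic faces of the membrane together. It had 3 probes, and they did not behave alike. Probe A_52_P329451, described as transcript variant 7 and listed with 4 RefSeq transcripts, had a scaled signal of 4107 on ASO, 3356 on ACO and 4040 on NCO. Probe A_55_P1992160, also described as variant 7, was dim, with 149 on ASO, 119 on ACO and 152 on NCO. For both of these the ACO array was the low one, with ASO and NCO within 0.026 of each other. Their differences were 0.29 and 0.23 for ASO minus ACO and -0.26 for both for ACO minus NCO. Probe A_52_P604195, annotated to variant 8, had 3741 on ASO, 4111 on ACO and 4189 on NCO. Here ASO was the low array, at -0.13 against ACO and -0.16 against NCO, and ACO differed from NCO by -0.027, which is within the spot SD. This last probe was the brightest and stands for the gene in the counts. The mean over the 3 probes was 0.13 for ASO minus ACO, so the direction given for Mbp in that comparison turns with the choice of probe.

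Mobp encodes a small basic protein of compact myelin. Its brightest probe, annotated to variant 1, had a signal of 5757 on ASO, 5026 on ACO and 5352 on NCO. A second probe, annotated to variant 3, had 1200 on ASO, 1114 on ACO and 1241 on NCO. A dim probe, also of variant 3, had 151 on ASO, 153 on ACO and 170 on NCO. All 3 were lower on ACO than on NCO, by -0.090, -0.15 and -0.12. For ASO minus NCO they parted, at 0.10 for the brightest and -0.047 and -0.13 for the others, and the mean over the probes was -0.026.

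Cldn11 encodes claudin 11, which seals the myelin lamellae with tight junctions. Its signal was 6371 on ASO, 6574 on ACO and 7556 on NCO. NCO was the high array, and ASO and ACO differed by -0.045, less than the spot SD. The difference was -0.20 for ACO minus NCO and -0.24 for ASO minus NCO, and -0.13 in both after the median difference of the surrounding spots was taken off.

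The glycoproteins Mag and Mog lie on opposite faces of the sheath. Mag, myelin-associated glycoprotein, binds sialic acids on the axon from the innermost myelin membrane. Its signal was 5777 on ASO, 4176 on ACO and 4538 on NCO, so ASO was the high array. Mag was at 138% of ACO and 127% of NCO on ASO, with differences of 0.46 and 0.34, and ACO differed from NCO by -0.12. The difference of 0.46 lay above the 95th percentile of all measured genes, 0.37, and that of 0.34 below its counterpart of 0.38. The spots around the Mag spot had a median difference of 0.019 for ASO minus ACO, and over 12 alternative ways of processing the difference stayed between 0.35 and 0.47. Mag rests on 1 probe at 1 spot.

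Mog, myelin oligodendrocyte glycoprotein, sits on the outermost myelin surface. Its signal was 688 on ASO, 635 on ACO and 752 on NCO. NCO was the highest and ACO the lowest, with a difference of -0.23 for ACO minus NCO, 0.11 for ASO minus ACO and -0.12 for ASO minus NCO. When spot means replaced spot medians, the ACO minus NCO difference was -0.081.

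Cnp and Ermn encode proteins of the cytoplasm of the cell and its sheath. Cnp, a cyclic nucleotide phosphodiesterase of the cytoplasmic channels in myelin, had a signal of 7304 on ASO, 6891 on ACO and 8567 on NCO. It had the lowest difference of the 9 genes for ACO minus NCO, at -0.31, with ACO at 80.5% of NCO. It was also lower on ASO than on NCO, by -0.23, and ASO and ACO differed by 0.084, which is less than the spot SD. Over the alternatives the ACO minus NCO difference stayed between -0.32 and -0.29.

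Ermn encodes ermin, an actin-binding protein of late-stage oligodendrocytes, and its 2 probes disagreed. The brighter probe, A_55_P2136752, had 7203 on ASO, 6848 on ACO and 7321 on NCO, and its differences lay between -0.096 and 0.073. The dimmer probe, A_55_P2060158, had 646 on ASO, 880 on ACO and 866 on NCO. ASO was the low array for this probe, at -0.42 against ACO and -0.40 against NCO. Both probes are annotated to the same RefSeq transcript, so no direction can be given for Ermn on ASO.

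Aspa and Ugt8a encode enzymes of the mature cell. Aspa, aspartoacylase, frees acetate from N-acetylaspartate. Its signal was 574 on ASO, 621 on ACO and 733 on NCO, with ASO lowest and NCO highest. The difference was -0.22 for ACO minus NCO and -0.33 for ASO minus NCO, with ASO at 79.7% of NCO. The difference of -0.11 for ASO minus ACO stood beside -0.20 in the spots around it, and was 0.095 after those were taken off. Ugt8a, the galactosyltransferase that makes galactosylceramide, had a signal of 581 on ASO, 614 on ACO and 675 on NCO. Its order over the arrays was that of Aspa, with -0.074 for ASO minus ACO, -0.13 for ACO minus NCO and -0.20 for ASO minus NCO.

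**Figure D2:**
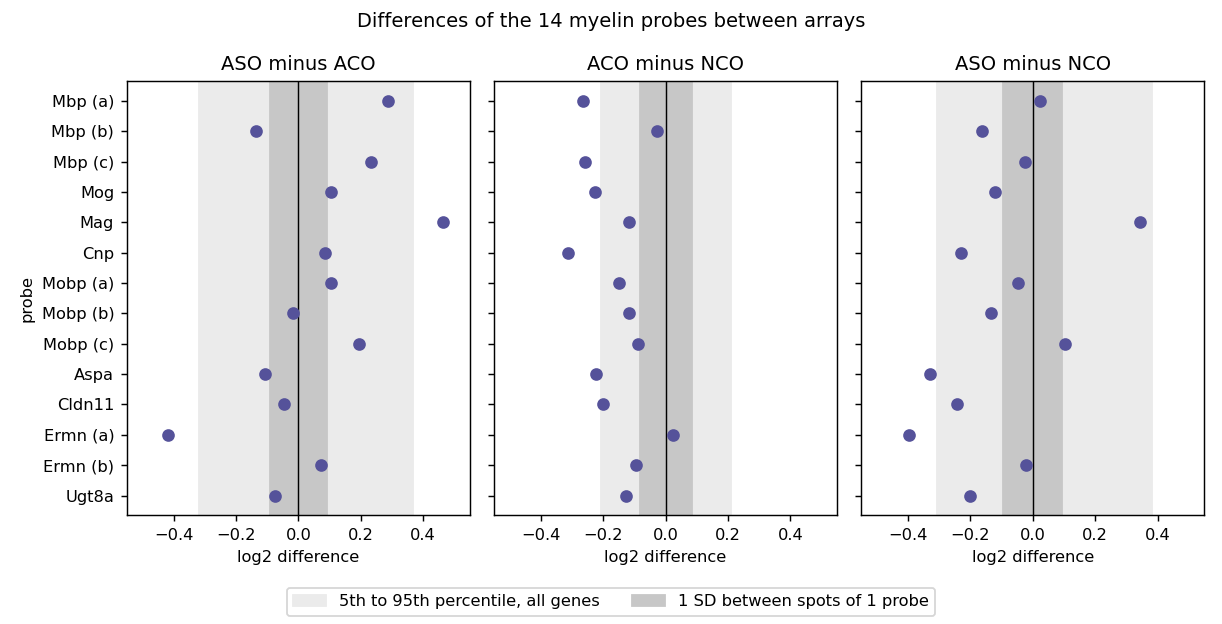
Log2 difference of each of the 14 probes for ASO minus ACO, ACO minus NCO and ASO minus NCO; the dark band is 1 median SD between spots of 1 probe and the pale band spans the 5th to 95th percentile of all measured genes. For ACO minus NCO 13 of 14 points lie left of 0, while for ASO minus ACO 6 lie left and 8 right of it.

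The comparison of ASO with ACO bears on the oil given to mice that had the peptide injection. Of the 9 genes, 4 were lower, where 52.9% of 13567 measured genes were lower, and the median was 0.073 beside -0.013 over all genes. Genes at least 1.1-fold higher on ASO were Mag and Mobp, 2 of 9, beside 22.9% of all genes, and none was at least 1.1-fold lower, beside 25.3%. By at least 1.2-fold, Mag alone was higher, beside 10.1% of all genes, and 0 were lower, beside 9.26%. The shares of the group rest on 9 genes and are not read as a result. The 1.1-fold call of Mobp rests on its brightest probe, at 0.19, since the other probes were at 0.10 and -0.019. It was lost with the mean over probes, at 0.093, with correction by the surrounding spots, at 0.12, and with scaling to the median, at 0.080. When the arrays were scaled to their medians in place of the 75th percentile, the median of all genes shifted by -0.10 and 7 of the 9 genes were lower, with a median of -0.042, which is 0.072 above all genes. Under that scaling 79.0% of the genes at least 1.1-fold apart were lower, against 52.5% in the reported setting. Mbp at -0.25, Aspa at -0.21, Ugt8a at -0.18 and Cldn11 at -0.16 were then at least 1.1-fold lower, beside 6117 of 13567 genes. Mag, at 0.35, was then at least 1.1-fold higher, beside 1628 of 13567 genes.

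The comparison of ACO with NCO asks what the injected peptide did, as far as the route of the fluid in NCO was the same. All 9 genes were lower on ACO, where 48.2% of 13313 measured genes were lower, and the median was -0.13 beside 0.0047. Of the 9 genes, 4 were at least 1.1-fold lower (Cnp, Mog, Aspa and Cldn11), beside 11.9% of all genes, and none was at least 1.1-fold higher, beside 12.3%. By at least 1.2-fold, 1 gene, Cnp, was lower, beside 2.72% of all genes, and 0 were higher, beside 2.76%. Of the 9 differences 8 were beyond 1 spot SD, as were 5 for ASO minus ACO and 8 for ASO minus NCO. The share of all genes beyond 1 spot SD was not counted, so these counts are not read as a result. The 5th and 95th percentiles of all genes for ACO minus NCO were -0.21 and 0.21. Among the 8 for ACO minus NCO, Ermn at -0.096 stood beside -0.089 in its surrounding spots. Once the surrounding spots were taken off, Ermn was at -0.0068 and Mobp at -0.071, both inside the spot SD. With spot means Mag was at -0.037 and Mog at -0.081, both inside the spot SD, so the 1.1-fold call of Mog was lost. That of Cldn11 was lost at -0.13 after correction by the surrounding spots. Other 1.1-fold calls were gained. Among them were Ugt8a at -0.165 and Mobp at -0.15 with spot means, and Mag at -0.15 after correction by the surrounding spots. In the reported setting Cnp, Mog and Aspa lay below the 5th percentile of all genes, -0.21. All 9 genes were lower under each of the 12 alternatives, with medians from -0.18 to -0.11, though Mbp was only at -0.0024 with scaling to the median. Some alternatives could not turn a sign. Every myelin probe passed each limit on signal to noise and on saturated pixels. A change of the added constant leaves the sign of a probe with 1 spot as it is. With the trend of the difference over signal level taken off, the 9 genes were again lower, with a median of -0.14. Scaling to the medians left 36.5% of the genes at least 1.1-fold apart lower, against 49.2%.

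The comparison of ASO with NCO shows how far the mice given oil and peptide stood from normal controls. It shares 1 array with each of the other comparisons, so its values are no separate evidence. Of the 9 genes, 7 were lower, beside 52.9% of 13457 measured genes, and the median was -0.16 beside -0.015. At least 1.1-fold lower were 5 of 9 (Aspa, Cldn11, Cnp, Ugt8a and Mbp), beside 25.3% of all genes, and 1 was at least 1.1-fold higher, Mag, beside 22.6%. The call of Mbp rests on its brightest probe, at -0.16, since the other probes were at 0.024 and -0.026, and it was lost with the mean over probes, at -0.054, and after correction by the surrounding spots, at -0.064. That of Cldn11 was lost after the same correction, at -0.13. By at least 1.2-fold, Aspa was lower, beside 8.32%, and Mag was higher, beside 10.3%. Scaling to the medians left 74.7% of the genes at least 1.1-fold apart lower, against 52.7%, and the median of the 9 genes was then -0.25. Aspa, Ugt8a, Cldn11, Cnp and Mog were lower on both peptide arrays than on NCO. The brightest probes of Mbp and Ermn were too, but each with 1 value inside the spot SD. That of Mbp was -0.027 for ACO minus NCO. That of Ermn was -0.023 for ASO minus NCO, and 0.11 after the surrounding spots were taken off. Mag was at 127% of NCO on ASO and at 92.1% on ACO.

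**Figure D3:**
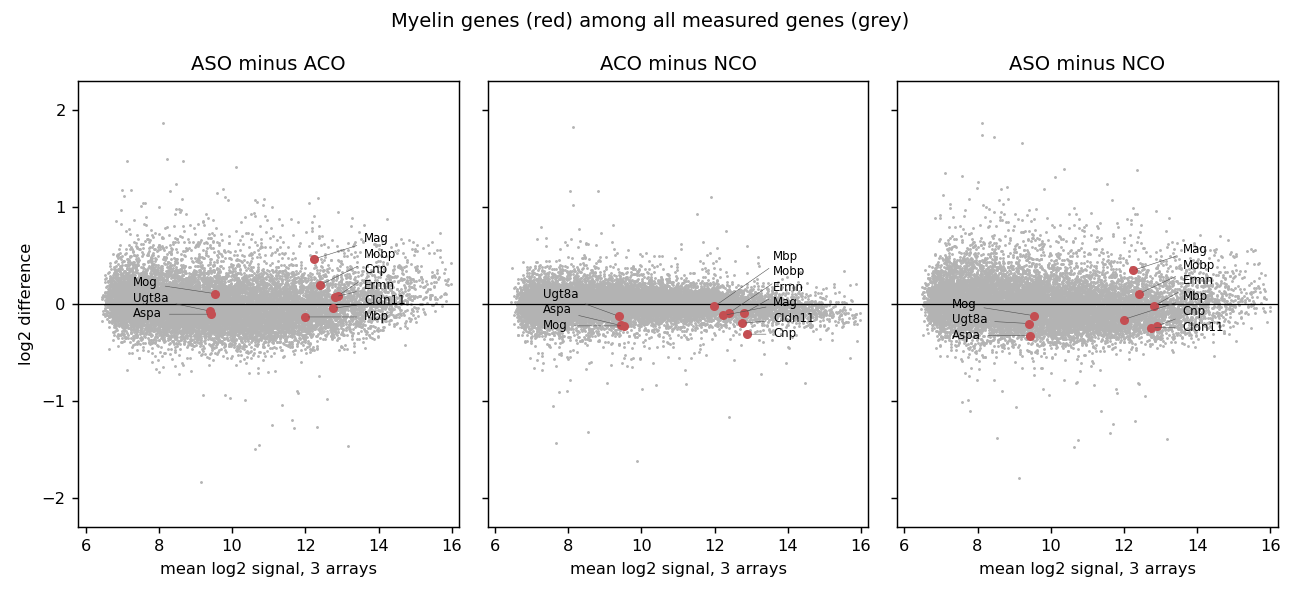
Log2 difference against the mean log2 signal (signal plus 50) over the 3 arrays for all measured genes (grey, 13567, 13313 and 13457 genes from left to right) and the 9 myelin genes (red, named). In the ACO minus NCO panel the 9 genes lie below 0 at all their signal levels, between -0.31 and -0.027, and in the other panels Mag stands above the rest at 0.46 and 0.34.

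Of 31 other genes of myelin and mature oligodendrocytes, all were above background on every array. Over all measured genes 48.2% were lower for ACO minus NCO, and 52.9% for each of the other comparisons. Counts of lower or higher genes in this list and the later lists stand beside these shares. On ACO against NCO 22 of 31 were lower and 9 higher, with a median of -0.049, and 8 were at least 1.1-fold lower, beside 11.9% of all genes, and 3 higher, beside 12.3%. The lowest were Ppp1r14a, an inhibitor subunit of myosin phosphatase, at -0.29, and Tmem125 at -0.23. The highest was Klk6, a serine protease of oligodendrocytes, at 1.16, followed by Enpp2, which encodes autotaxin, at 0.22. Klk6 had a signal of 248 on ASO, 329 on ACO and 119 on NCO, so both peptide arrays were above NCO. Enpp2 is also abundant in choroid plexus.

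For ASO minus ACO the same list held 16 lower and 15 higher genes, with a median of -0.0064, and 4 were at least 1.1-fold lower, beside 25.3% of all genes, and 10 higher, beside 22.9%. Tmem125 at 0.35 and Ppp1r14a at 0.29 were the highest, and Anln at -0.38 and Omg, an oligodendrocyte and neuronal surface glycoprotein gene, at -0.36 were the lowest. Anln had a signal of 973 on ASO, 1284 on ACO and 1252 on NCO, so ASO was the low array. For ASO minus NCO 19 were lower and 12 higher, with a median of -0.046, and Klk6 at 0.81 and Cd9 at 0.30 were the highest.

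Lineage transcription factors were measured in 9 of 10 cases. Between ACO and NCO 7 of 9 were lower, with a median of -0.077, and Olig1 at -0.21 and Olig2 at -0.19, which specify the lineage, were the lowest. Olig1 had a signal of 4447 on ASO, 3917 on ACO and 4524 on NCO. Olig2 had 242 on ASO, 199 on ACO and 234 on NCO. In both genes ACO was the low array, and the ASO minus ACO differences were 0.18 and 0.23. For that comparison 6 of 9 factors were higher, with a median of 0.068, and Zfp488, a zinc finger factor of oligodendrocytes, was the highest at 0.30. Sox10, which drives myelin genes and was picked after its values were seen, had 1525 on ASO, 1453 on ACO and 1457 on NCO, with differences no larger than 0.068. Myrf, the myelin regulatory factor, was not well above background on any array.

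Of the 15 genes listed for myelin lipid synthesis, 11 were lower for ACO minus NCO, with a median of -0.081. For ASO minus ACO 8 of 15 were lower, with a median of -0.045. The lowest gene of the list was Degs1, a desaturase of ceramide synthesis, at -1.28, with a signal of 1802 on ASO, 4441 on ACO and 4316 on NCO. Of 57 measured spots around it, 5 were at least 2-fold lower on ASO as well, and with spot means the difference was -0.69. Around the 14 myelin probes 0 spots were at least 2-fold lower in that comparison. Pex5l, at 0.72 the highest of the lipid list for ASO minus ACO, encodes a channel-trafficking protein of neurons and is no lipid enzyme. It is also counted among the 11 lower genes for ACO minus NCO, at -0.11.

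Genes of earlier stages were measured too, beside 48.2% of all genes lower for ACO minus NCO and 52.9% for ASO minus ACO. Of 9 measured genes of newly formed oligodendrocytes, 6 were lower for ACO minus NCO, with a median of -0.041, and for ASO minus ACO 7 of 10 were higher, with a median of 0.085. Oligodendrocyte precursor genes were measured in 8 of 11 cases in both comparisons. On ACO 7 of 8 were lower than on NCO, with a median of -0.086, and for ASO minus ACO 5 of 8 were higher, with a median of 0.094. Cspg4, the NG2 proteoglycan gene, had a signal of 630 on ASO, 457 on ACO and 466 on NCO. It was the highest of the precursor genes for ASO minus ACO, at 0.42. The spots around it had a median difference of 0.19 in that comparison, beside 0.061 around C1ql1, the next highest at 0.36. Pcdh15 was the lowest, at -0.49. Pdgfra, the growth factor receptor of precursors, had 615 on ASO and 687 on both ACO and NCO.

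Genes that oligodendrocytes and other glia switch on under stress or disease had medians above 0. On ACO 9 of 12 were higher than on NCO, with a median of 0.16, led by Klk6, which is in both lists, and by the complement gene C4b at 0.93. On ASO against ACO 9 of 12 were higher too (median 0.21), with the interferon-induced gene Ifi27l2a at 0.85 and the MHC class I gene H2-D1 at 0.45 highest and Klk6 lowest at -0.35. For ASO minus NCO 10 of 12 were higher, with a median of 0.33. C4b had a signal of 4177 on ASO, 3357 on ACO and 1743 on NCO. These genes are not specific to oligodendrocytes, and which cells held the RNA was not measured.

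**Figure D4:**
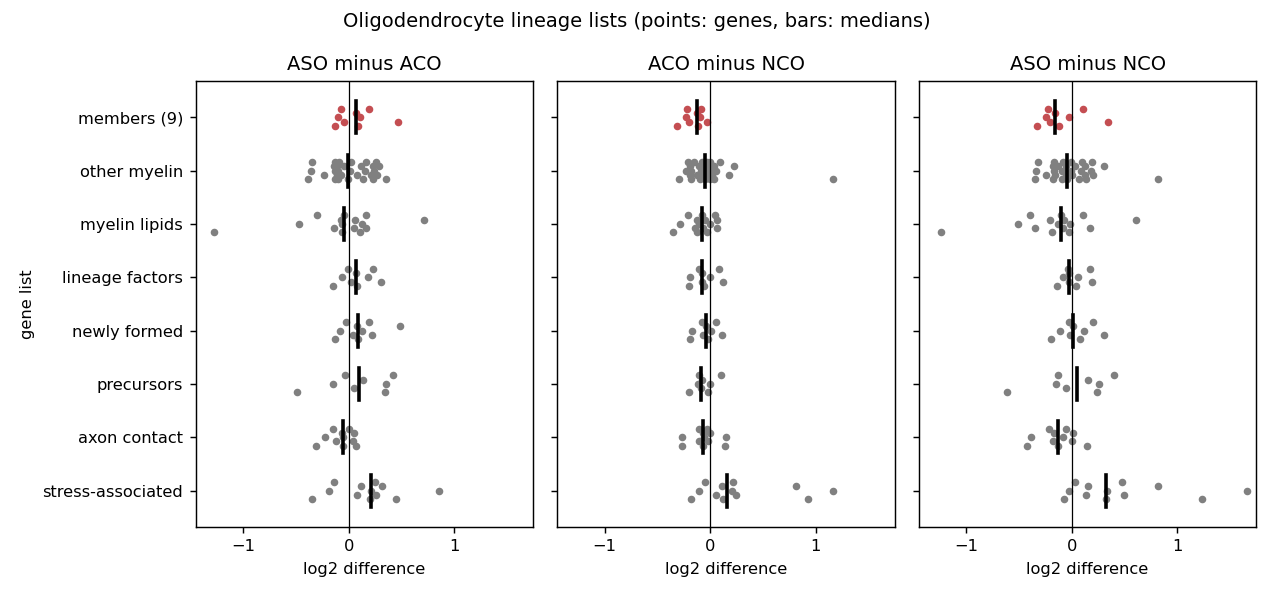
Log2 differences of the measured genes (points) of the 9-gene group (red) and 7 other lists of the oligodendrocyte lineage (grey) in the 3 comparisons. A black bar stands at each median, and Ugt8a is in both the 9-gene group and the lipid list. For ACO minus NCO the medians of the 9 genes and of 6 lists lie left of 0, from -0.13 to -0.041, and that of the stress-associated list lies at 0.16.

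Markers of other cell types differed on the same arrays. Choroid plexus markers were higher on ACO than on NCO in 10 of 11 measured cases (median 0.50). The 12 genes of that list summed to 22504 on ASO, 22524 on ACO and 25764 on NCO, a sum led by Ttr, at -0.46 for ACO minus NCO. Between ASO and ACO 10 of 11 microglia genes were higher, with a median of 0.51, and their summed signal was 38199 on ASO, 28479 on ACO and 29065 on NCO. Neuron genes were lower in 9 of 12 cases for ACO minus NCO, with a median of -0.094, and summed to 110269 on ASO, 96254 on ACO and 101284 on NCO. Astrocyte genes had 5 of 10 lower in that comparison, with a median of 0.00059, and summed to 83414 on ASO, 76034 on ACO and 72377 on NCO. For ASO minus ACO 9 of 10 astrocyte genes were higher, with a median of 0.096 and with Gfap, the astrocyte filament gene, at 0.84. In the same comparison 9 of 12 choroid plexus genes were lower, with a median of -0.19. The 9 myelin genes summed to 37996 on ASO, 35497 on ACO and 39683 on NCO. Every listed marker of microglia, neurons and astrocytes was above background on all 3 arrays, as were 11 of the 12 of choroid plexus. The part of these cell types, and of the amount of white matter in the dissected tissue, in the myelin differences was not tested.

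Many genes had a like pattern on these arrays. Among 7086 genes outside all lists and at least as bright as the dimmest of the 9, the 5 nearest to the group's medians of -0.13 for ACO minus NCO and 0.073 for ASO minus ACO were Adi1, Gpt, Abtb1, Mrpl11 and Med1, at distances of 0.0056 to 0.0076 in the plane of these differences over 3 arrays. Within a distance of 0.1 there were 781 genes, and 5952 were at least as near as Mag, the farthest of the 9 genes, at 0.39.

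**Figure D5:**
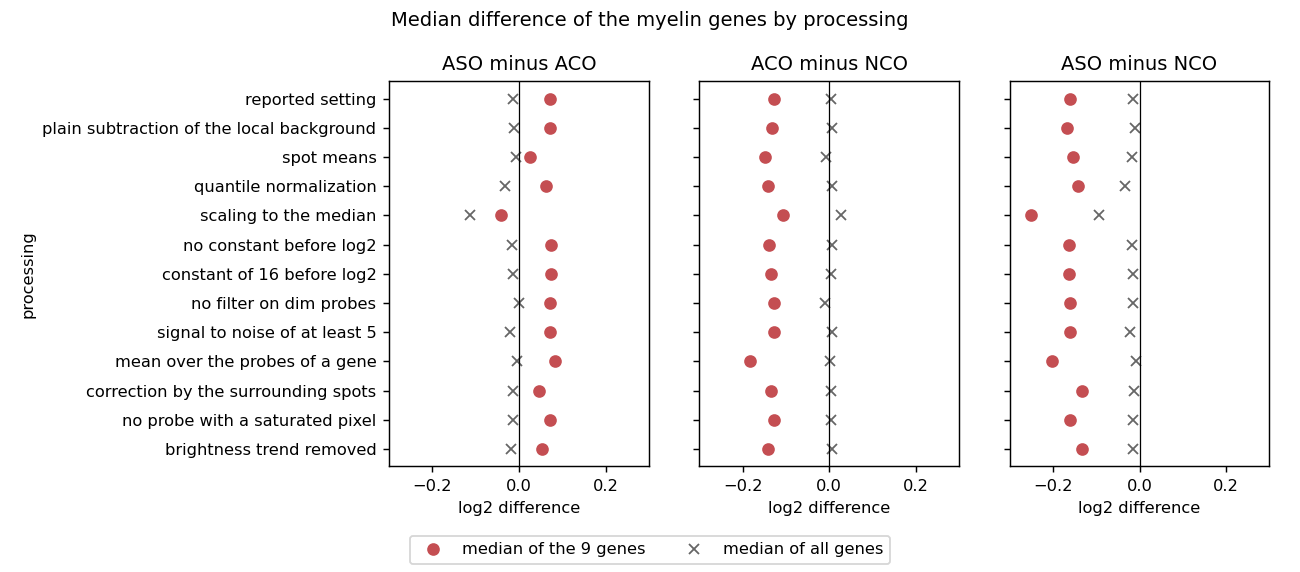
Median log2 difference of the 9 myelin genes (red circles) and of all measured genes (grey crosses) in the reported setting and under 12 alternatives, for the 3 comparisons. For ACO minus NCO the circles stay between -0.18 and -0.11, and for ASO minus ACO scaling to the median moves both marks left, to -0.042 and -0.11.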

How the data were processed

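The members and lists were chosen with earlier results of these data known. The authors deposited spot and local background intensities at 532 nm, unnormalized, from a GenePix 4000B scanner and GenePix Pro 6.1.0.4, per the file headers. For each spot the authors also deposited the program's percent of saturated pixels, signal to noise value and quality score, per the file headers. The submitters' processing notes also name Agilent Feature Extraction. RNA was pooled before labelling, per the labels.

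Spot medians were background-corrected with normexp (saddle fit, offset 0) in limma 3.58.1 (R 4.3.3) on all spots. Without control spots, the arrays were brought to the same 75th percentile and log2 was taken after adding 50, which draws dim probes towards 0. A probe entered a comparison at a signal to noise value of 2.6 or more on both arrays, unless at least 50% of its pixels were saturated on both or it was marked bad. The brightest entered probe stood for a gene. Names came from a RefSeq table of GRCm38.p6 and, failing that, the file. Surrounding spots lay within 5 rows and columns. Other steps used Python 3.11.15, numpy 2.4.6, pandas 2.3.3 and statsmodels 0.14.6, and were tested on simulated data. All 9 genes are named, and of each other list up to 2 genes at each end of its range, apart from some that are not reported here. The deposited value table held none of the 14 probes and was not used here. Results were recomputed under 12 alternatives, of which the removal of the trend with brightness was chosen after seeing the data. The number of arrays limits the precision.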

Additional observations from a re-analysis of the deposited data

How the results depend on the processing

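With 1 array per group, a value counted as moved when it shifted by more than the median SD between spots of 1 probe. Over 12 alternatives, all 9 myelin genes and 13 probes stayed lower for ACO minus NCO. The removal of the brightness trend, 1 of these alternatives, was chosen after seeing the data. Changes of the added constant and of the signal to noise and saturation limits could not turn a sign there. Some genes came close to 0, inside the spot SD. Mbp was at -0.0024 with scaling to the median, and Ermn at -0.0068 with correction by the surrounding spots. The ASO minus ACO values were less settled. Scaling to the median shifted all genes there and gave a median of -0.042 with 7 genes and 10 probes lower, -0.0012 for Mog, and medians of -0.12 for other myelin genes, -0.044 for lineage factors, -0.015 for precursors, -0.16 for axon contact genes and 0.098 for stress-associated genes. Correction by the surrounding spots left 2 genes lower and put Aspa at 0.095. The mean over a gene's probes put Mbp at 0.13 for ASO minus ACO and Mobp at -0.026 for ASO minus NCO. A signal to noise limit of 5 gave a precursor median of -0.053 for ASO minus NCO over 7 genes. Apart from the effects of scaling, of fewer genes and of the choice of probe, which these settings make by construction, the cause was not tested. No paired analysis was possible because each group has 1 array. No array repeats a pool. The median spot SD was 0.083 to 0.095, but the highest was 0.54 for ASO minus ACO and 0.29 for ACO minus NCO. A difference above 0.1 at a single spot can therefore still lie within spot error.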

Other observations

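Genes of the contact between myelin and axon, at the node and its flanks, were lower for ACO minus NCO in 10 of 12 cases. Their median was -0.067, and 48.2% of all genes were lower in that comparison. Dlg1, a scaffold protein gene, and Cadm4, a glial adhesion molecule that binds axonal partners, were lowest at -0.27 each. Nfasc, which holds the paranode and node together, was highest at 0.15. The other Dlg1 probe was at 0.023, and the spots around the first were at a median of -0.12, beside 0.012 around Cadm4. For ASO minus ACO 8 of 11 were lower, beside 52.9% of all genes, with a median of -0.058. Kcna1, a potassium channel gene of the axon beside the paranode, was lowest in that comparison at -0.31, with a signal of 6726 on ASO, 8356 on ACO and 9030 on NCO. For ASO minus NCO 9 of 11 were lower, beside 52.9% of all genes, with a median of -0.13.

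Of 8 genes listed for Schwann cells, which make peripheral myelin, 6 were above background on ASO, 6 on ACO and 5 on NCO. Of the thalamus and habenula genes, 5 of 7 measured were higher for ACO minus NCO, with a median of 0.086. Of the 10 genes of that list, 8 were above background on ASO, 7 on ACO and 7 on NCO.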
